A study of Mus musculus with 12 samples.

Results

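The interaction of genotype and Wnt-3A withdrawal was measured in mouse colonic organoids, as the response of AhR-deficient organoids minus the response of wild-type organoids, gene by gene. Total RNA was sequenced from organoids grown from colon crypts of C57BL/6 mice in 4 groups of 3 libraries. These were AhR-/- organoids (KO) after 3 days without Wnt-3A in ENR medium (KO differentiated), AhR-/- organoids in WENR medium (KO stem), WT organoids in ENR medium (WT differentiated) and WT organoids in WENR medium (WT stem). The stem medium held EGF, Noggin and Rspondin-1 beside Wnt-3A, and of the ENR medium the labels state the absence of Wnt-3A. The allele behind the AhR deficiency and the number of mice or cultures are not given in the sources used here, and p-values then measure only the spread between libraries, which may be technical. Of 48795 genes in the table, 14856 reached 10 normalized counts in 3 or more libraries and were tested.

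A response is the mean log2(normalized count + 1) of the differentiated libraries minus that of the stem libraries of the same genotype, and the interaction is the KO response minus the WT response, both in log2 units. A positive interaction therefore marks a smaller fall or a larger rise in KO organoids. A called gene was blunted when the KO response was smaller in size than the WT response, exaggerated when it was larger, and reversed when both responses were called in opposite directions. A call is a Benjamini-Hochberg adjusted p under 0.05 from limma over all genes tested.

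In the colon, Wnt ligands hold crypt-base stem cells in cycle, and cells that leave the Wnt source stop dividing and become absorptive colonocytes, goblet cells or enteroendocrine cells. Withdrawal of Wnt-3A from organoids imitates that step. AhR is a ligand-activated transcription factor that binds DNA with ARNT at elements with the core letters GCGTG and induces enzymes such as Cyp1b1, and in the intestinal epithelium it is known for roles in barrier upkeep and in restraining stem cell growth.

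Recovered depth lay between 25.1 and 99.0 M reads per library, with WT differentiated library 3 the shallowest and KO stem library 1 the deepest. The epithelial genes Epcam and Krt8 were at 30131 normalized counts or more in every library, while Cd3e, a T cell gene, was at 0 in all 12 and Ptprc, a leukocyte gene, at 5.97 or less. WT stem library 1 stood apart by fibroblast transcripts, with 13196 normalized counts of Vim and 4788 of Col1a1, against at most 356 and 159 in the other 11 libraries, where the highest values were those of KO stem library 3. Over all 14856 genes tested, limma called 1292 for the interaction, edgeR 1220 and DESeq2 2442, and 4037 had an unadjusted p under 0.05 by limma. Such counts for lists, here and below, stand against these numbers. Of the 25 fibroblast and muscle genes listed, 5 were tested and 0 called for the interaction by limma, edgeR or DESeq2, with 1 at an unadjusted p under 0.05. Their summed level over all 25 was 132 to 165 in KO differentiated, 71.9 to 687 in KO stem, 150.5 to 201 in WT differentiated and 87.7 to 23485 in WT stem libraries. Of the 21 immune, blood and endothelial genes listed, 6 were tested and 0 called by limma or edgeR and 1 by DESeq2, with 3 at an unadjusted p under 0.05. These 6 summed to 1103 to 1721 in KO differentiated, 4469.6 to 4639 in KO stem, 993 to 1210 in WT differentiated and 1744 to 3395 in WT stem libraries. Pecam1, an endothelial gene of this list, was at 9.15 or less in every library. The part of fibroblasts in the results below was not tested beyond leaving libraries out. For the immune, blood and endothelial genes, with reads in all 12 libraries, leaving libraries out is no test, and their part was not tested.

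The targeted gene itself was higher in KO than in WT libraries, not lower. Ahr (GRCm38, as for all positions, chromosome 12, 35497974 to 35535038) had 3824, 3356 and 3110.0 normalized counts in KO differentiated libraries, against 2503, 2831 and 2690.3 in KO stem libraries. In WT differentiated libraries it had 2127, 2236 and 2260.0, against 1762, 1746 and 1909 in WT stem libraries. KO exceeded WT without overlap in both conditions, by 0.63 log2 (adjusted p = 0.000597) in differentiated and 0.57 (adjusted p = 0.00208) in stem libraries. Both genotypes rose slightly, by 0.36 in KO and 0.29 in WT, and the interaction was 0.06 ± 0.11 (SE, adjusted p = 0.743). Reads summed along a gene cannot tell whether one part of it has been deleted.

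Cyp1b1, the AhR-induced monooxygenase, did separate the genotypes in both conditions. Its level was 20.6, 16.0 and 13.0 in KO differentiated libraries, against 571, 408 and 269 in KO stem libraries. WT differentiated libraries had 574, 679.6 and 634, against 8502, 7479 and 8453 in WT stem libraries. KO libraries lay below WT libraries without overlap in each condition, while withdrawal lowered the gene in both genotypes, with responses of -4.53 in KO and -3.69 in WT, and the interaction of -0.84 ± 0.33 (SE, adjusted p = 0.13) was not called, with a 95% interval of -1.56 to -0.11. In normalized counts rather than log2 units the KO fall was the smaller one, so the direction of this interaction turns with the scale. Of the 10 tested AhR target genes 0 were called for the interaction by limma or edgeR and 4 by DESeq2, with 5 at an unadjusted p under 0.05. Over all 14856 genes tested DESeq2 called 2442, and 4037 had an unadjusted p under 0.05. The median response of the 10 genes was -0.40 in KO and -0.40 in WT, the WT value being -0.72 without WT stem library 1. Nqo1, a quinone reductase, had an interaction of 0.72 ± 0.28 (SE, adjusted p = 0.119), and Tiparp, a feedback repressor of AhR, -0.66 ± 0.57 (SE, adjusted p = 0.489). Neither was called, although other settings brought Nqo1 under the threshold in 3 cases and Cyp1b1 in 4.

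Promoter letters of the first named blunted and exaggerated genes that have a single start in the reference table, and of AhR target genes, are shown because GCGTG is the core of the element that AhR binds. Each line gives the 250 bases before the RefSeq start on the gene's strand (GRCm38.p6), and capitals mark GCGTG or its reverse complement CACGC. A match is a description of letters, not a binding site.
Ascl2 (blunted fall, chr7:142969265-142969514, minus strand, 3 matches): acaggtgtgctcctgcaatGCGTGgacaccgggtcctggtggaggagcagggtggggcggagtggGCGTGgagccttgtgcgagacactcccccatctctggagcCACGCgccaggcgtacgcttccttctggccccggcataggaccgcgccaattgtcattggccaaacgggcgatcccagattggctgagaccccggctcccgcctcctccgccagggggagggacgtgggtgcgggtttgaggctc
Mcam (exaggerated rise, chr9:44134408-44134657, plus strand, 0 matches): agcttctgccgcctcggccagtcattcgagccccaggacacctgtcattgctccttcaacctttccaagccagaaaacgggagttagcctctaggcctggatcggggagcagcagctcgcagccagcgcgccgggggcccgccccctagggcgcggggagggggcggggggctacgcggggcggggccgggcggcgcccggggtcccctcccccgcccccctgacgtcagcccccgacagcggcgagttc
Cyp1b1 (AhR target gene, chr17:79715062-79715311, minus strand, 1 match): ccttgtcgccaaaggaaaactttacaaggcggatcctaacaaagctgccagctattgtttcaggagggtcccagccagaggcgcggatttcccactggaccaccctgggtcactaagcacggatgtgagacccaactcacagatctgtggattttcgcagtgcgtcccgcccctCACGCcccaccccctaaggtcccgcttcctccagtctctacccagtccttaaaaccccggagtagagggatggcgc
Nqo1 (AhR target gene, chr8:107403206-107403455, minus strand, 0 matches): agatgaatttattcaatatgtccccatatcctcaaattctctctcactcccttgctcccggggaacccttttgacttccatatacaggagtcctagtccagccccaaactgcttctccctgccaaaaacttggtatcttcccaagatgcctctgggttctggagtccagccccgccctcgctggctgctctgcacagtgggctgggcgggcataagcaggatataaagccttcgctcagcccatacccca
Tiparp (AhR target gene, chr3:65528197-65528446, plus strand, 1 match): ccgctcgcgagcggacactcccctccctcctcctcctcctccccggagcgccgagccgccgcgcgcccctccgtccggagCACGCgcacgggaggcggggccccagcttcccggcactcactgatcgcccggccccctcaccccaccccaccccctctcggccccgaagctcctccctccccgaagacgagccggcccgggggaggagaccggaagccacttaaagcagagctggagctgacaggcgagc
Ascl2 held 3 matches, Cyp1b1 and Tiparp 1 each, and Mcam and Nqo1 had 0 in this window. The 2 windows of Ptpn5 and the window of Nfe2l2 also had 0 matches, and 1 of the 3 windows of Il16 had 1. Over the whole reference table, 28.2% of 32851 windows held the letters on either strand. Per gene, counting a gene when any of its windows matched, the share was 52.4% of 767 blunted, 45.4% of 183 exaggerated and 48.5% of 33 reversed genes in the table, against 49.0% of 9845 genes not called.

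Withdrawal changed most genes in both genotypes, and the KO response was the smaller one in most called genes. The response was called for 10059 genes in KO (67.7% of those tested) and 10732 in WT (72.2%). The interaction was called for 1292 genes, 8.70% of those tested, with a median size of 0.61 log2 and 268 genes over 1 log2. Of these, 760 (5.12% of genes tested) had a higher and 532 (3.58%) a lower response in KO. At an unadjusted p under 0.05 there were 4037 genes, and the lowest adjusted p was 0.00416. Among all genes tested the median interaction was 0.04.

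Blunted responses made up 1003 of the 1292 called genes. There were 618 blunted falls, with a median response of -0.79 in KO and -1.32 in WT, and 385 blunted rises, with a median of 0.47 in KO and 1.17 in WT. In 206 blunted genes the KO response itself was not called. Exaggerated responses numbered 247, of which 128 had a rise and 119 a fall as the larger response, and in 150 of them the WT response was not called. The 42 reversed genes split into 14 with a higher KO response, with a median of 0.52 in KO and -0.49 in WT, and 28 with a lower one, with a median of -0.37 in KO and 0.33 in WT. Both responses had the same sign in 583 of the 618 blunted falls and 332 of the 385 blunted rises. The same held for 98 of the 128 exaggerated rises and 74 of the 119 exaggerated falls. The other blunted and exaggerated genes had responses of opposite sign that were not both called. On the linear scale 4 of the 1292 called genes had an interaction of the opposite sign.

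**Figure D1:**
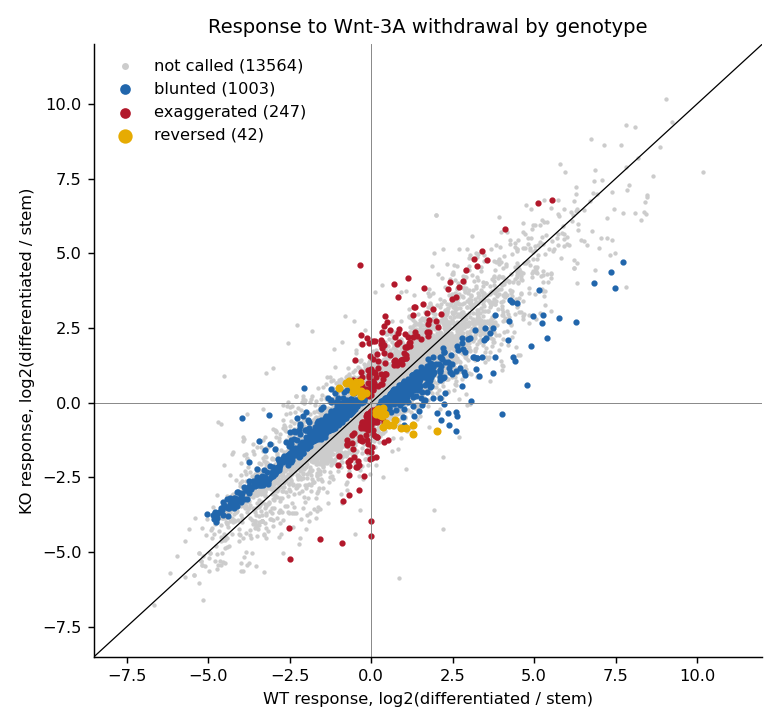
KO response (vertical axis) against WT response (horizontal axis), both as log2 of differentiated over stem, for the 14856 genes tested, with the line of equal responses; 1003 blunted, 247 exaggerated and 42 reversed genes are coloured. Most blunted genes lie between the line and the horizontal axis on both sides. Reversed genes lie in the upper left and lower right, where some blunted and exaggerated genes also lie.

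The same tendency stood in genes picked without the interaction, by the mean of both responses, a contrast orthogonal to their difference in this balanced design. Of 5952 genes called for a rise in the mean, 61.2% had the smaller response in KO, with a median of 0.72 in KO and 0.83 in WT. Of 5781 genes called for a fall in the mean, 71.4% had the smaller response in KO, with a median of -0.65 in KO and -0.85 in WT. Over these 11733 genes the KO response had a slope of 0.86 on the WT response by least squares and 0.92 by an orthogonal fit, with a correlation of 0.94, given as a description over genes, which share the same libraries and are not independent.

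Each library was placed on a line through those genes from a genotype's stem mean (0) to its differentiated mean (1), with the library itself left out of its group's mean. On the WT line the KO differentiated libraries reached 0.81, 0.85 and 0.86, against 0.997, 0.95 and 1.01 for WT differentiated libraries, with no overlap. The KO stem libraries were at -0.005, -0.02 and -0.04, against -0.03, 0.06 and 0.05 for WT stem libraries, which overlapped. The mean distance travelled was thus 0.86 in KO and 0.96 in WT. On the KO line it was 0.96 in KO and 1.01 in WT, so the shortfall of KO organoids was smaller when the genes were weighted by their own response. KO differentiated library 1 was the lowest of its group on both lines.

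**Figure D2:**
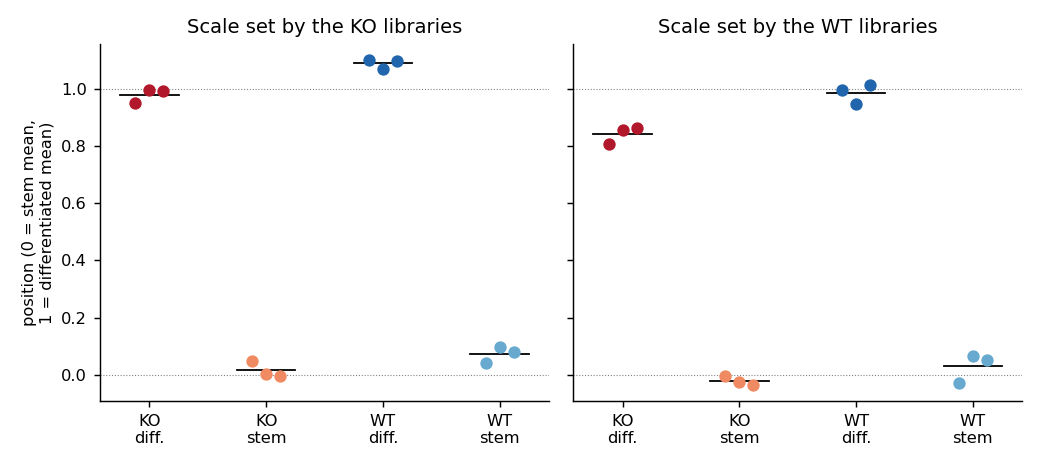
Position of each of the 12 libraries (points) and the mean of each group (bars) on the line from stem (0) to differentiated (1), set by the KO libraries on the left and by the WT libraries on the right. On the WT scale the 3 KO differentiated libraries lie between 0.81 and 0.86, below the 3 WT differentiated libraries.

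More genes differed between genotypes after withdrawal than before it. KO against WT was called for 27.6% of genes in differentiated libraries and for 6.57% in stem libraries. KO and WT differentiated libraries did not overlap in 53.1% of all genes tested, and in 1193 of the 1292 called genes. A lack of overlap after withdrawal, as given for single genes below, is therefore common. In stem condition the groups did not overlap in 742 of the 1292 called genes. The share over all genes tested is not given for stem libraries. A lack of overlap in stem condition, wherever it is stated, therefore has no background to be set against. Among the 1292 genes called for the interaction, 946 were called between genotypes in differentiated libraries only, 132 in stem libraries only, 72 in both and 142 in neither. These comparisons share their libraries with the interaction and add no separate evidence. In bulk RNA, fewer cells of a type and less RNA per cell cannot be told apart.

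The number of called genes depended on which libraries entered. Leaving out a KO stem library gave 420.0, 459 and 794 genes (libraries 1, 2 and 3 in that order), leaving out a WT differentiated library gave 524, 843 and 342, leaving out KO differentiated library 2 gave 739, and leaving out WT stem library 1 gave 1603. Without both WT stem library 1 and KO stem library 3 it was 1241. Of the 1292 genes, 304 were called without any 1 of the 12 libraries, 222 of them blunted, 65 exaggerated and 17 reversed. Called genes described below with values in every library belong to these 304 unless a library is named.

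Some Wnt target and stem cell genes fell less in KO organoids. Of 18 tested Wnt target genes, 4 had a higher and 0 a lower interaction, with a median interaction of 0.75, and of 16 stem cell genes 5 were higher and 1 lower, with a median of 0.48, against 5.12% higher and 3.58% lower over all genes tested. Among the called genes Ascl2 and Cd44 counted in both lists. Not all of these were falls: Slc12a2 and Cd44 were exaggerated rises, Slc12a2 with 0.95 in KO and 0.29 in WT. The lower stem cell gene, Prom1, was a blunted rise, with 0.87 in KO and 1.47 in WT. The stem cell count was 2 without KO stem library 1 or 2 or without WT differentiated library 1 or 3, and the Wnt target count was 6 without WT stem library 1. Ascl2, the Wnt-driven master transcription factor of crypt-base stem cells (chromosome 7, 142966829 to 142969264), had 169.9, 119.7 and 164 normalized counts in KO differentiated libraries, against 546, 561 and 667 in KO stem libraries. In WT differentiated libraries the level was 80.1, 58.5 and 75.0, against 859, 1186 and 881 in WT stem libraries. KO libraries were below WT libraries in stem condition and above them after withdrawal, without overlap in either. The response was -1.97 in KO and -3.75 in WT, an interaction of 1.78 ± 0.26 (SE, adjusted p = 0.00975).

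Myb, a transcription factor of crypt progenitors (chromosome 10, 21124935 to 21160984) that is in neither list, also fell less in KO. Its level was 149, 225 and 256 in KO differentiated libraries, against 586, 567 and 704 in KO stem libraries, and 150.3, 118 and 127 in WT differentiated libraries, against 1311, 1433 and 1092 in WT stem libraries. In stem condition all KO libraries were below all WT libraries, and after withdrawal the groups overlapped. With a response of -1.59 in KO and -3.27 in WT the interaction was 1.68 ± 0.27 (SE, adjusted p = 0.0107). Tcf7, a DNA-binding partner of β-catenin, fell in WT only by call, at -0.12 in KO and -0.94 in WT, an interaction of 0.82 ± 0.16 (SE, adjusted p = 0.0161). Cd44, an adhesion receptor and Wnt target, instead rose by 1.16 in KO, with a WT response of 0.22 that was not called and an interaction of 0.94 ± 0.16 (SE, adjusted p = 0.0122), so its exaggerated rise counted among the higher genes of both lists.

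Further members were less secure or not called. Axin2, the negative-feedback Wnt target, fell by 0.99 log2 in KO and by 1.67 in WT, an interaction of 0.69 ± 0.19 (SE, adjusted p = 0.0466), a call that held with WT stem library 1 left out and was lost without each of the other 11 libraries, with an adjusted p of up to 0.118. Smoc2, a matricellular stem cell gene, had 355, 285 and 187 normalized counts in KO differentiated libraries, against 467, 264 and 433 in KO stem libraries. Levels of the WT differentiated libraries were 85.4, 54.9 and 47.7, against 315, 453 and 190.4 in WT stem libraries. After withdrawal every KO library was above every WT library, a lack of overlap found in either direction in 53.1% of all genes tested. The interaction of 1.79 ± 0.50 (SE, adjusted p = 0.0493) was lost without 10 of the 12 libraries, all but KO differentiated library 3 and WT stem library 3, with an adjusted p of up to 0.123. Lgr5, the Rspondin receptor of stem cells, had 3994, 3544 and 3825 in KO differentiated libraries, against 4308, 5559.9 and 7264 in KO stem libraries. Its WT differentiated libraries had 1832, 1939.7 and 1833, against 2530.3, 7489.7 and 6013 in WT stem libraries. After withdrawal all KO libraries were above all WT libraries, whereas WT stem libraries spread widely with library 1 low, and the interaction of 0.81 ± 0.45 (SE, adjusted p = 0.265) was not called (95% interval -0.17 to 1.80). Myc, a Wnt target and growth regulator, had 0.22 ± 0.16 (SE, adjusted p = 0.431).

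Most genes of DNA replication fell less far in KO organoids. Of 30 tested members 20 had a higher interaction, against 5.12% of all genes tested, and 0 a lower one, all 20 blunted falls, and the median response was -2.38 in KO and -3.01 in WT. The count was 7 without KO stem library 2 or WT differentiated library 3, 10 without KO stem library 1, 11 without KO stem library 3, KO differentiated library 2 or WT differentiated library 1, and 13 without KO differentiated library 3. Without both libraries with fibroblast transcripts it was 16. Summed over the 30 genes the level was 29746, 31231 and 31281 normalized counts in KO differentiated libraries, against 149120.1, 136759 and 144136 in KO stem libraries. The sum was 27019.8, 26759 and 24960.1 in WT differentiated libraries, against 214097, 165937 and 155162 in WT stem libraries. KO libraries lay above WT after withdrawal and below WT in stem condition, without overlap in either.

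Uhrf1, which couples DNA methylation to replication (chromosome 17, 56303321 to 56323486), had 946, 1099 and 1142 normalized counts in KO differentiated libraries, against 8256, 6911 and 7204 in KO stem libraries. The WT differentiated libraries had 710.2, 649 and 622, against 12429.8, 9136 and 8391 in WT stem libraries. The groups did not overlap in either condition, and the interaction was 1.09 ± 0.19 (SE, adjusted p = 0.0124), on responses of -2.81 in KO and -3.90 in WT. Pole, the catalytic subunit of the leading-strand polymerase, had an interaction of 0.89 ± 0.18 (SE, adjusted p = 0.0171), and Rfc4, a clamp loader subunit, 0.87 ± 0.15 (SE, adjusted p = 0.0116). Mcm5, a subunit of the replicative helicase, had 0.93 ± 0.20 (SE, adjusted p = 0.0195), and its call was lost without KO stem library 2 or WT differentiated library 3, with an adjusted p of up to 0.0581.

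Cell cycle genes had fewer calls, in the same direction. Of 30 cell cycle genes 9 had a higher interaction, against 5.12% of all genes tested, and 0 a lower one, 29 of 30 lay above 0, and the median response was -3.19 in KO and -3.99 in WT. The count was 21 without KO differentiated library 1, 4 without WT differentiated library 1 or 3 or KO stem library 2, and 5 when KO stem library 1 was left out. Foxm1, a transcription factor of entry into mitosis, had 331, 421 and 397 normalized counts in KO differentiated libraries, against 3454, 3314 and 3631 in KO stem libraries. In WT organoids the differentiated libraries had 239.5, 229 and 204, against 4783, 3884 and 3579 in WT stem libraries. After withdrawal KO exceeded WT in every library, while the stem groups overlapped, and the interaction was 0.99 ± 0.17 (SE, adjusted p = 0.0116). Bub1, a spindle checkpoint kinase, had 0.90 ± 0.17 (SE, adjusted p = 0.0161), and Cenpa, the centromeric histone, 0.86 ± 0.16 (SE, adjusted p = 0.0134). Mki67, the proliferation marker, had 737, 1279.8 and 1327 in KO differentiated libraries, against 6779.7, 7531 and 12258 in KO stem libraries. With 884, 868 and 984 in WT differentiated libraries, against 11217, 12416 and 10923 in WT stem libraries, the groups overlapped in both conditions, and its interaction of 0.67 ± 0.33 (SE, adjusted p = 0.219) was not called (95% interval -0.06 to 1.40).

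Among growth metabolism genes, 5 of the 28 amino acid and unfolded protein stress genes had a higher interaction, against 5.12% of all genes tested, and 0 a lower one, a higher count of 3 without KO stem library 1 or WT differentiated library 3. Phgdh, the first enzyme of serine synthesis, had 2690.0, 2126 and 1976 normalized counts in KO differentiated libraries, against 13619.7, 13689 and 14437 in KO stem libraries. For WT differentiated libraries the values were 1076, 1205 and 1043, against 15247, 13818 and 15170.5 in WT stem libraries. The stem groups overlapped and the KO differentiated libraries were all higher, with an interaction of 1.10 ± 0.14 (SE, adjusted p = 0.00853). Shmt2, the mitochondrial serine hydroxymethyltransferase, had 0.78 ± 0.11 (SE, adjusted p = 0.0098), and Slc7a5, a leucine transporter, 0.88 ± 0.17 (SE, adjusted p = 0.0157). Nuclear-encoded genes of oxidative phosphorylation showed 0 calls by limma or edgeR and 1 by DESeq2 among 28 tested, 4 of them at an unadjusted p under 0.05. Over all 14856 genes tested DESeq2 called 2442, and 4037 had an unadjusted p under 0.05. The median response of the 28 genes was -0.66 in KO and -0.66 in WT.

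Of 19 genes of EGF receptor signalling 2 had a higher and 3 a lower interaction, against 5.12% and 3.58% of all genes tested. The lower ones were Erbb2, Dusp6 and Tgfa, at -0.60, -0.54 and -0.45, and the median interaction of the list was -0.11. The higher ones were Etv5 and Etv4. Etv5, an ETS factor induced by ERK, had 737, 675 and 601 normalized counts in KO differentiated libraries, against 1099, 1201 and 1252 in KO stem libraries. WT differentiated libraries had 399.8, 376 and 402, against 1277, 1252 and 1361 in WT stem libraries. Every KO library exceeded every WT library after withdrawal, while in stem condition the highest KO and the lowest WT library were both at 1252, with an interaction of 0.90 ± 0.12 (SE, adjusted p = 0.00928). Its relative Etv4 reversed, with a response of 0.39 in KO and -0.31 in WT and an interaction of 0.70 ± 0.12 (SE, adjusted p = 0.0126). Nr4a1, an immediate early nuclear receptor, had 1.11 ± 0.20 (SE, adjusted p = 0.0134). Creb3l1 and Foxa3, a secretory-pathway factor and a goblet cell factor, fell less in KO, with 1.07 ± 0.17 (SE, adjusted p = 0.0107) and 0.93 ± 0.15 (SE, adjusted p = 0.0113). Acot1, an acyl-CoA thioesterase, was at 216, 144 and 162 in KO differentiated libraries, against 451, 448 and 459 in KO stem libraries, and at 40.4, 57.3 and 40.9 in WT differentiated libraries, against 403, 462 and 336 in WT stem libraries. Its stem levels overlapped and its KO differentiated levels were all higher, with an interaction of 1.70 ± 0.26 (SE, adjusted p = 0.0098).

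**Figure D3:**
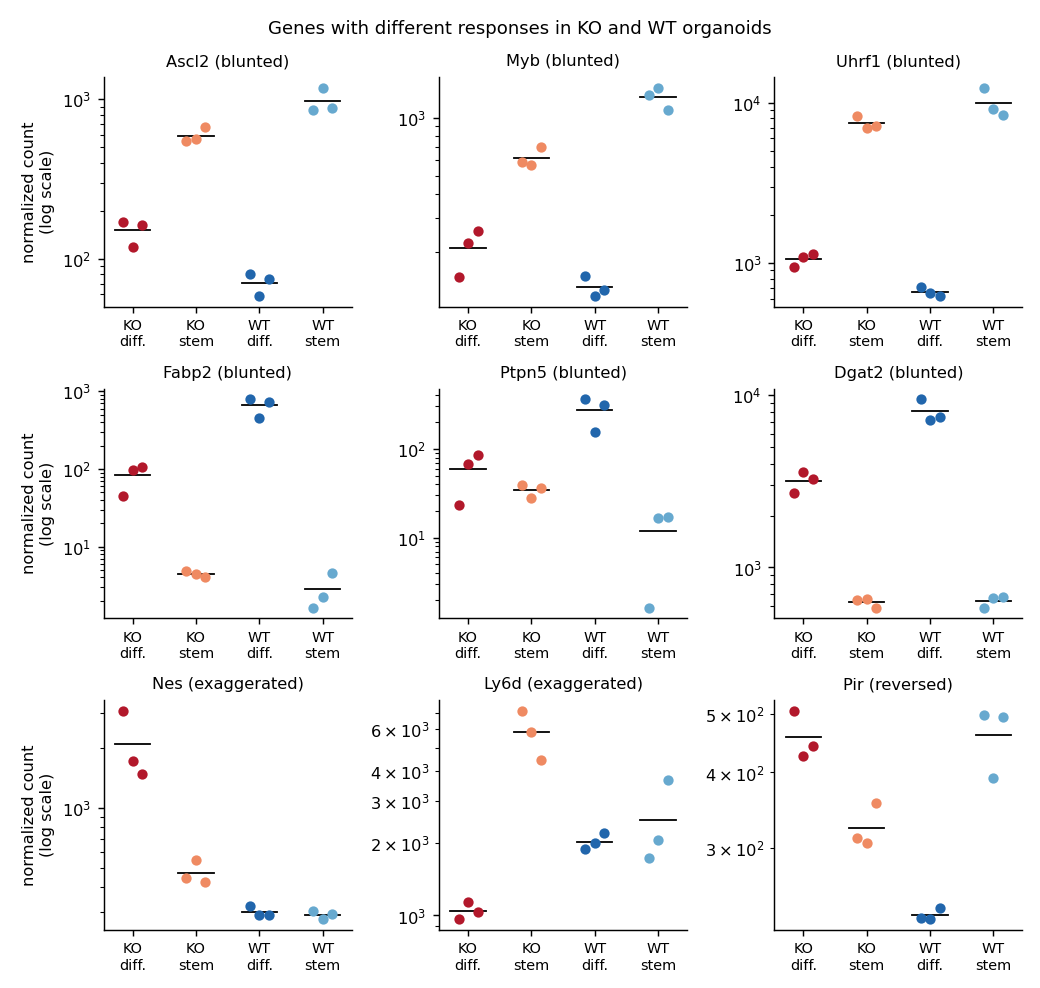
Normalized counts (log scale) of 9 genes in each library (points) with the mean of each group (bars), in the order KO differentiated, KO stem, WT differentiated and WT stem. Ascl2, Myb and Uhrf1 fell less in KO, Fabp2, Ptpn5 and Dgat2 rose less, Nes rose and Ly6d fell by call in KO alone, and Pir rose in KO and fell in WT.

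Rises that were smaller in KO organoids included genes of fat handling, brush border and xenobiotic metabolism. Of 35 fatty acid and lipid genes 7 had a lower interaction, against 3.58% of all genes tested, and 1, Acot1, a higher one. Of the 7, 5 were smaller rises, while Cd36, a fatty acid uptake receptor, and Acadl, an acyl-CoA dehydrogenase, were exaggerated falls. Acadl was named after its values were seen, and the Cd36 call was lost without KO stem library 1 or 2 or WT differentiated library 1 or 2. The lower count was 2 without KO stem library 2 or WT differentiated library 1, 3 without KO stem library 1 or WT differentiated library 3, and 4 without WT differentiated library 2. Fabp2, the intestinal fatty acid binding protein (chromosome 3, 122895072 to 122899506), had 44.9, 97.3 and 106 normalized counts in KO differentiated libraries, against 4.85, 4.40 and 4.07 in KO stem libraries. In WT differentiated libraries the level was 795, 451 and 729, against 1.63, 2.22 and 4.62 in WT stem libraries. The stem levels were a few reads in both genotypes and overlapped, whereas every KO differentiated library was below every WT one, and the interaction was -3.62 ± 0.54 (SE, adjusted p = 0.0098). At such low stem levels the size of a response depends on the pseudocount, and the difference of KO from WT after withdrawal was -3.03 log2.

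Dgat2, which makes triglyceride from diacylglycerol (chromosome 7, 99153658 to 99182719), gave the same picture at a high level. It had 2694, 3605 and 3269.5 in KO differentiated libraries, against 646, 658 and 584 in KO stem libraries, and 9503, 7152 and 7509 in WT differentiated libraries, against 584, 662 and 674 in WT stem libraries. Stem levels overlapped, KO differentiated levels were all lower, and the interaction was -1.31 ± 0.18 (SE, adjusted p = 0.00876) on responses of 2.33 in KO and 3.64 in WT. Ptpn5, a tyrosine phosphatase, had the largest blunted rise under the naming rule. Its level was 23.6, 67.4 and 85.2 in KO differentiated libraries, against 39.3, 27.9 and 36.6 in KO stem libraries, and 363, 154 and 311 in WT differentiated libraries, against 1.63, 16.6 and 17.3 in WT stem libraries. The KO groups overlapped each other and the WT groups did not, with an interaction of -4.21 ± 0.99 (SE, adjusted p = 0.0295) that was lost without any of KO stem libraries 1, 2 and 3, KO differentiated library 1 and WT differentiated libraries 1 and 3, with an adjusted p of up to 0.0773.

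Of 22 brush border genes 6 had a lower interaction, against 3.58% of all genes tested, and 0 a higher one, 5 of the 6 being blunted and 1, Eps8, reversed, and 20 lay below 0, with a median response of 0.67 in KO and 1.34 in WT. The count was 2 without KO stem library 2 or WT differentiated library 1 or 3, and 3 without KO stem library 1 or WT differentiated library 2. Plekhg6, an activator of RhoG that acts with ezrin at microvilli, had 977, 1133 and 1107 normalized counts in KO differentiated libraries, against 837, 736 and 676 in KO stem libraries. Levels of the WT differentiated libraries were 1496, 1609 and 1631, against 483, 387 and 499.7 in WT stem libraries. The KO range was narrower at both ends, above WT in stem condition and below WT after withdrawal without overlap, and the interaction was -1.28 ± 0.16 (SE, adjusted p = 0.00667). Eps8l2, an actin-capping relative of Eps8, had -0.68 ± 0.13 (SE, adjusted p = 0.0161). Vil1, the actin bundler villin, had -0.37 ± 0.12 (SE, adjusted p = 0.0705), which was not called.

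Of 35 absorptive colonocyte genes 0 were higher and 3 lower, 8.57%. Over all genes tested 3.58% were called lower, and 8.70% in either direction. Of the 35 interactions 25 lay below 0, with a median of -0.37, and 19 without KO differentiated library 1, with a median of -0.29. The lower count was 1 without any of KO stem libraries 1 and 2, KO differentiated library 1 and WT differentiated libraries 1, 2 and 3. Slc26a2, a sulfate transporter, had 13744, 17653 and 17282 in KO differentiated libraries, against 13353, 11711 and 11820.0 in KO stem libraries. With 26313, 26183 and 29766 in WT differentiated libraries, against 12583, 12118 and 12141 in WT stem libraries, the stem groups overlapped, all KO differentiated libraries were lower, and the interaction was -0.76 ± 0.13 (SE, adjusted p = 0.0126).

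Several abundant differentiation genes were lower in KO in both conditions and had no called interaction. Krt20, a keratin of mature surface cells, had 3248, 9106 and 8947 normalized counts in KO differentiated libraries, against 33.4, 59.4 and 61.1 in KO stem libraries. The WT differentiated libraries had 30197, 22425 and 28678, against 126, 237 and 366 in WT stem libraries. Within each condition every KO library was below every WT library, with responses of 6.99 in KO and 6.91 in WT and an interaction of 0.07 ± 0.62 (SE, adjusted p = 0.953), whose 95% interval of -1.29 to 1.44 is wide. Car1, a colonic carbonic anhydrase, had 9858, 17097 and 28609 in KO differentiated libraries, against 19.4, 10.3 and 13.2 in KO stem libraries. Its WT differentiated libraries had 90679, 60548 and 102118, against 266, 78.7 and 175 in WT stem libraries, and the interaction was 1.10 ± 0.64 (SE, adjusted p = 0.291) (95% interval -0.31 to 2.51). Guca2a, the precursor of guanylin, likewise lay lower in KO in both conditions and had 1.48 ± 0.59 (SE, adjusted p = 0.134). For Krt20, Car1 and Guca2a the interaction in normalized counts had the opposite sign, since WT gained more reads from a higher start.

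Aqp8, a colonocyte water channel, can be given as levels only, because it had 0 reads in all 3 WT stem libraries and in KO stem libraries 2 and 3. It was at 4.57, 81.3 and 17.0 normalized counts in KO differentiated libraries, against 225, 115 and 447 in WT differentiated libraries. Every KO value was below every WT value there, and the interaction missed the threshold with an adjusted p of 0.0615. Slc26a3, the colonic chloride and bicarbonate exchanger, was at 54.9, 329 and 343 in KO differentiated libraries, against 1178, 776 and 1863 in WT differentiated libraries, with stem levels of a few reads or 0 in both genotypes, and was not called (adjusted p = 0.301).

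In secretory lineages, 3 of 23 goblet cell genes were higher and 0 lower, against 5.12% and 3.58% of all genes tested, while 0 of 10 enteroendocrine and 0 of 12 tuft cell genes were called by limma, edgeR or DESeq2. The median interaction of the goblet cell list was 0.03, with 13 genes above 0 and 10 below. Of the 3 called, Creb3l1 and Foxa3 had negative responses in both genotypes, whereas the median response of the list was 3.83 in KO and 3.12 in WT. At an unadjusted p under 0.05 there were 0 enteroendocrine and 3 tuft cell genes, against 4037 of all 14856 genes tested. Muc2, the main secreted mucin, had an interaction of -0.38 ± 0.65 (SE, adjusted p = 0.741) with a 95% interval of -1.80 to 1.04, and Tff3, a goblet cell peptide, 1.77 ± 0.66 (SE, adjusted p = 0.115) with 0.31 to 3.22.

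Of 38 xenobiotic metabolism genes 6 had a lower and 2 a higher interaction, against 3.58% and 5.12% of all genes tested, with a median response of 2.80 in KO and 3.91 in WT. The median interaction was -0.42 and depended on single libraries, at -0.08 without KO differentiated library 1 and -0.25 without WT stem library 1. The lower count was 1 without KO stem library 1 or WT differentiated library 3, 2 without KO stem library 2 and 3 without WT differentiated library 1. Among the lower genes Aldh1a1 was an exaggerated fall and not a smaller rise, with -1.89 in KO and -0.05 in WT. Of the 2 higher genes, Ugt1a7c was an exaggerated rise, with 2.35 in KO and 0.35 in WT, an interaction of 2.01. The other, Gstm1, was a blunted fall with an interaction of 0.52. Fmo5, a flavin monooxygenase, had 526, 1148 and 1466 normalized counts in KO differentiated libraries, against 131, 134 and 119 in KO stem libraries. In WT organoids the differentiated libraries had 3611, 2659.9 and 3964, against 91.3, 106 and 129 in WT stem libraries. All KO differentiated libraries were below all WT ones and the stem groups overlapped, with an interaction of -2.05 ± 0.43 (SE, adjusted p = 0.0204). Abcg2, a xenobiotic efflux pump, had responses of 0.17 in KO and 2.10 in WT and an interaction of -1.93 ± 0.41 (SE, adjusted p = 0.0205). Both calls were lost without KO stem library 1 or 2 or WT differentiated library 1 or 3, with an adjusted p of up to 0.0606 for Fmo5 and 0.0567 for Abcg2.

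**Figure D4:**
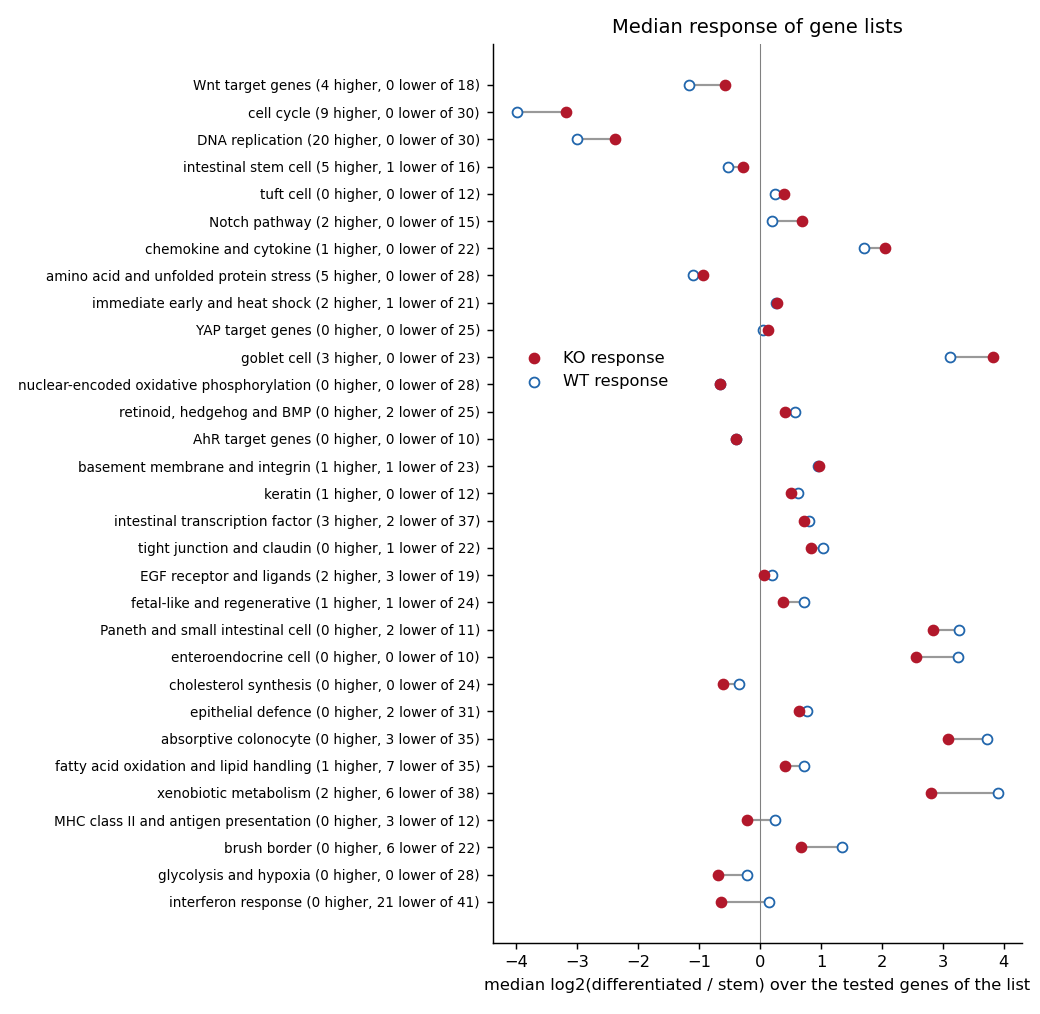
Median response over the tested genes of 31 lists with at least 10 tested genes (log2 of differentiated over stem), filled points for KO and open points for WT, with the number of genes called higher and lower for the interaction beside each name and the lists in order of median interaction. DNA replication (20 higher) and interferon response (21 lower) have the most called genes.

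Interferon-response genes were the list with most calls in the lower direction, 21 of 41 tested and 0 higher, against 3.58% of all genes tested. Of the 21, 5 were blunted, 12 exaggerated and 4 reversed, and the median response of the list was -0.64 in KO and 0.14 in WT. The count was 12 without KO stem library 1 or WT differentiated library 3, 13 without KO stem library 2 and 24 without both libraries with fibroblast transcripts. Summed over the 41 genes the level was 85373, 109785 and 106322.5 normalized counts in KO differentiated libraries, against 161347, 154633 and 132601 in KO stem libraries. For WT differentiated libraries the values were 155541, 147059 and 152586, against 115998, 123477 and 131786 in WT stem libraries. KO organoids thus had the lower sum after withdrawal and the higher sum in stem condition, without overlap in either.

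Isg15, a ubiquitin-like interferon product (chromosome 4, 156199424 to 156200818), had 936, 1458 and 1278 normalized counts in KO differentiated libraries, against 4871, 3631 and 3002 in KO stem libraries. WT differentiated libraries had 2765, 2642 and 2458, against 3243, 2152 and 2575 in WT stem libraries. All KO differentiated libraries were below the other 9, and the WT groups overlapped, with an interaction of -1.64 ± 0.28 (SE, adjusted p = 0.0122). Oas3, a sensor of double-stranded RNA, had -1.48 ± 0.23 (SE, adjusted p = 0.0098) on responses of -1.62 in KO and -0.13 in WT. Ifit1, which binds foreign RNA caps, had 859, 1833 and 1949.7 in KO differentiated libraries, against 1974, 2046 and 1541 in KO stem libraries. With 4908, 4148 and 4759 in WT differentiated libraries, against 916, 1212 and 1327 in WT stem libraries, it rose in WT only by call, and the interaction was -2.35 ± 0.37 (SE, adjusted p = 0.0107).

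Ifit3, a partner of Ifit1 (chromosome 19, 34583531 to 34588731), reversed. It had 444, 1025 and 922 normalized counts in KO differentiated libraries, against 1764, 1789.9 and 1168 in KO stem libraries, and 2399, 2053 and 2149 in WT differentiated libraries, against 577, 1135 and 1089 in WT stem libraries. Withdrawal lowered it in KO, with a response of -1.04, and raised it in WT, with one of 1.30, without overlap between conditions in either genotype, and the interaction was -2.34 ± 0.46 (SE, adjusted p = 0.0165). Ifit3 and Ifit3b, and Oas1a and Oas1g, are near-identical copies whose reads the counting could have split, so their separate values are uncertain. Not every member took part: Bst2, Mx1 and Irgm1 were not called, with interactions of -0.04, -0.14 and -0.09, named here after their values were seen. In the list of MHC and antigen presentation genes 3 of 12 had a lower interaction, against 3.58% of all genes tested, a count of 1 without KO stem library 1 or 2 or WT differentiated library 1 or 3. Tap2, a peptide transporter, was one of these, with -0.78 ± 0.14 (SE, adjusted p = 0.0142).

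**Figure D5:**
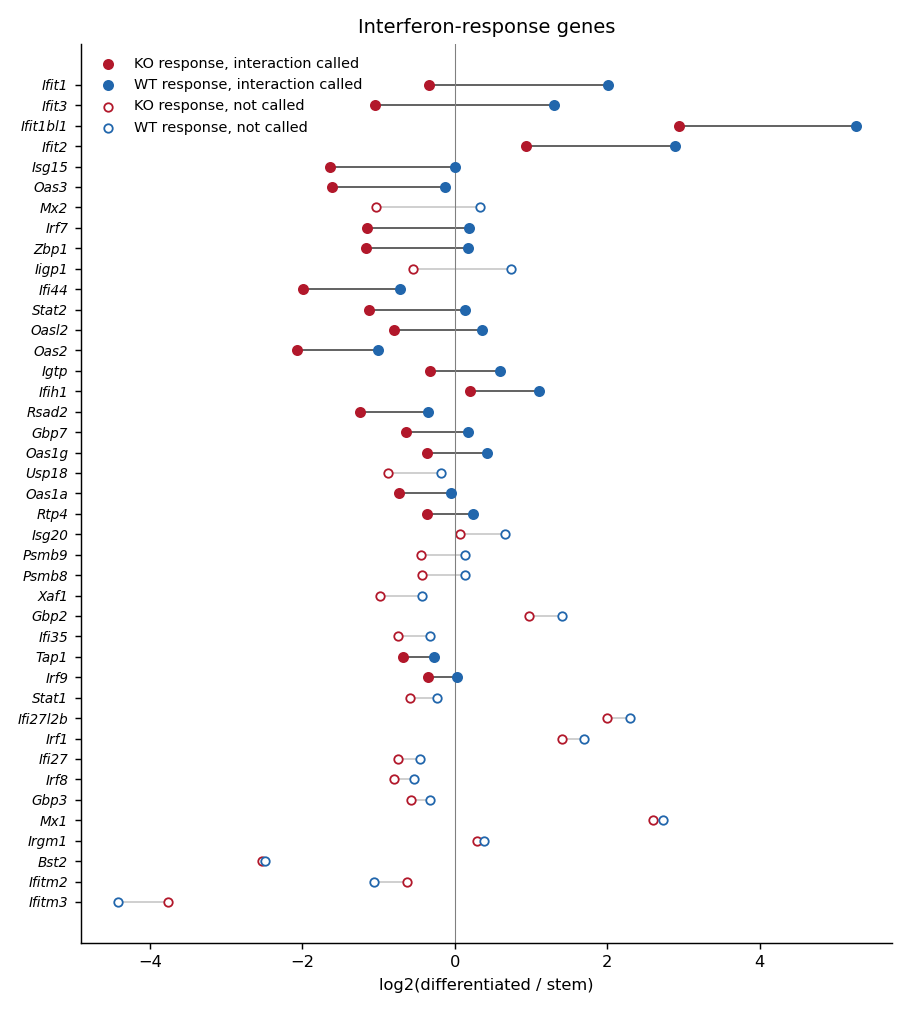
KO and WT responses (log2 of differentiated over stem) of the 41 tested interferon-response genes in order of the interaction; filled points mark the 21 genes called for the interaction. In 39 of 41 genes the KO response lies left of the WT response.

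Some exaggerated rises were called in KO organoids and not in WT. Nes, the intermediate filament nestin (chromosome 3, 87971078 to 87980451), had 3080.0, 1714 and 1487 normalized counts in KO differentiated libraries, against 444, 550.4 and 427 in KO stem libraries. In WT differentiated libraries the level was 324, 293 and 291, against 303, 277 and 294 in WT stem libraries. Every KO library was above every WT library, the KO differentiated ones by far, and the interaction was 2.02 ± 0.31 (SE, adjusted p = 0.0098) on responses of 2.08 in KO and 0.05 in WT.

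Mcam, a cell adhesion molecule also found on vascular cells (chromosome 9, 44134469 to 44142727), had 1031, 459 and 494 in KO differentiated libraries, against 189, 145 and 139 in KO stem libraries. Its WT differentiated libraries had 167, 142 and 129, against 223, 163 and 156 in WT stem libraries. The KO differentiated libraries stood above all others, with library 1 the highest as for Nes, and the interaction was 2.26 ± 0.39 (SE, adjusted p = 0.0122). Zbtb10, a zinc finger repressor, had 386, 231 and 198 in KO differentiated libraries, against 43.1, 33.0 and 42.8 in KO stem libraries, and 191, 189.9 and 177 in WT differentiated libraries, against 112, 164 and 125 in WT stem libraries. It started lower in KO and ended above WT, with an interaction of 2.21 ± 0.33 (SE, adjusted p = 0.0098).

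Itga2, the collagen-binding integrin α2, was lower in KO stem than in WT stem libraries and overlapped after withdrawal, with responses of 2.55 in KO and 2.05 in WT and an interaction of 0.50 ± 0.09 (SE, adjusted p = 0.0125). Cdx1, an intestinal homeobox factor, had 1783, 3031 and 3360.2 normalized counts in KO differentiated libraries, against 612, 703 and 924 in KO stem libraries. Levels of the WT differentiated libraries were 5796, 4705 and 5663, against 4320.4, 4841 and 3604 in WT stem libraries. Within each condition every KO library was below every WT library, by more in stem condition, and the interaction of 1.49 ± 0.32 (SE, adjusted p = 0.0204) was lost without KO stem library 1 or 2 or WT differentiated library 3, with an adjusted p of up to 0.0533. Its relative Cdx2 had -0.39 ± 0.22 (SE, adjusted p = 0.276), in the other direction and not called.

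Exaggerated falls included genes that stood higher in KO stem than in WT stem libraries. Ly6d, a surface protein of the Ly6 family (chromosome 15, 74762056 to 74763620), had 964, 1142 and 1031 in KO differentiated libraries, against 7149, 5844 and 4448 in KO stem libraries. In WT differentiated libraries it had 1886, 2014 and 2199, against 1738, 2071 and 3668 in WT stem libraries. KO exceeded WT in stem condition and was below WT after withdrawal, without overlap, with an interaction of -2.23 ± 0.34 (SE, adjusted p = 0.0098). Aldh1a1, a retinal dehydrogenase, had 2971, 2902 and 3683 in KO differentiated libraries, against 15633, 11667 and 8803 in KO stem libraries. With 4947, 4172 and 6835 in WT differentiated libraries, against 5648, 4380.3 and 6297 in WT stem libraries, the WT groups overlapped and the KO groups did not, and the interaction was -1.84 ± 0.32 (SE, adjusted p = 0.0122). Tjp1, the tight junction scaffold ZO-1, had -0.60 ± 0.09 (SE, adjusted p = 0.0098) on responses of -0.73 in KO and -0.13 in WT.

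Reversed genes outside the interferon list had mixed functions. Pir, an iron-binding nuclear protein (chromosome X, 164269371 to 164373011), had the lowest adjusted p of all genes tested. It had 507, 426 and 442 normalized counts in KO differentiated libraries, against 311, 305 and 355 in KO stem libraries. In WT organoids the differentiated libraries had 229, 228 and 238, against 499, 392 and 494 in WT stem libraries. The gene rose in KO and fell in WT without overlap between conditions, with responses of 0.50 in KO and -0.98 in WT, and the interaction was 1.48 ± 0.17 (SE, adjusted p = 0.00416). Ass1, argininosuccinate synthase of the urea cycle, turned the same way, with 0.54 in KO and -0.55 in WT and an interaction of 1.09 ± 0.18 (SE, adjusted p = 0.0113).

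Ncoa7, a nuclear receptor coactivator (chromosome 10, 30628999 to 30803326), turned the other way. It had 353, 404 and 407 in KO differentiated libraries, against 658, 755 and 561 in KO stem libraries, and 926, 723 and 972 in WT differentiated libraries, against 577, 581 and 486 in WT stem libraries. Withdrawal lowered it in KO and raised it in WT without overlap, and the interaction was -1.42 ± 0.20 (SE, adjusted p = 0.0097). Tmem37, a membrane protein related to calcium channel γ subunits, had -0.76 in KO and 0.55 in WT, an interaction of -1.31 ± 0.18 (SE, adjusted p = 0.00876).

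Of the lists with 0 calls by limma, some leaned to one side, by amounts that rested on 1 library. In glycolysis and hypoxia genes 26 of 28 interactions were below 0, with a median response of -0.70 in KO and -0.21 in WT. Without WT stem library 1, the library with fibroblast transcripts, 22 were below 0, the WT median was -0.56 and the median interaction was -0.19 in place of -0.49. In cholesterol synthesis genes 23 of 24 were below 0, with -0.61 in KO and -0.35 in WT. Without KO differentiated library 1, 16 were below 0, the KO median was -0.43 and the median interaction was -0.07 in place of -0.26. At an unadjusted p under 0.05 there were 2 glycolysis and 5 cholesterol genes, against 4037 of all 14856 genes tested. Of either list edgeR called 0, and DESeq2 called 0 and 1, against 2442 of all genes tested. Of 25 YAP target genes 0 were called by limma, edgeR or DESeq2, 2 had an unadjusted p under 0.05, and 15 were above 0. Clu, a gene of regenerative epithelium, rose in both genotypes, with an interaction of 0.44 ± 0.37 (SE, adjusted p = 0.48) that was not called and a 95% interval of -0.38 to 1.26.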

How the data were processed

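RNA-seq libraries of 12 organoid samples, 3 in each of 4 groups, were grouped by the labels. The deposited values are normalized counts per gene, a signal that the authors made by dividing estimated counts by size factors. The submitters' processing notes name Bowtie2, RSEM 1.2.11, DESeq2 1.18.1 and GRCm38, and whether counting used strand is not given in the sources used here. Values stepped in whole multiples of 1 read, and 100% of values in each library came out whole within 0.05 reads, which gave 25.1 to 99.0 M recovered reads per library. Of the gene identifiers, 99.262% matched GENCODE vM21.

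The test was limma 3.58.1 (R 4.3.3) on log2(value + 1), fitted to 4 group means over genes that reached 10 in 3 or more libraries, with Benjamini-Hochberg adjustment. A fold on this scale understates the change of low genes. The scripts were tested on simulated data. Named genes were the 6 called genes of largest interaction in each class and direction with a group mean of at least 50, up to 6 called members of each list (or the 2 of highest mean), and a panel of lineage and AhR genes. Some genes that the rule names are not reported here. The members and lists were chosen with earlier results of these data known. Alternatives were edgeR 4.0.16 and DESeq2 1.42.0 on recovered reads, other pseudocounts, filters and scalings, a replicate block, and each library left out. Leaving out WT stem library 1 and KO stem library 3 together was chosen after seeing the data.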

Additional observations from a re-analysis of the deposited data

Results flagged for a closer look

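The response to Wnt-3A withdrawal differed between AhR-deficient and WT organoids by the interaction term in 1292 genes (limma, Benjamini-Hochberg adjusted p under 0.05). The blunted rise of Ptpn5 had an interaction of -4.21 and the blunted fall of Smoc2 1.79, calls that were lost without 6 and 10 of the 12 libraries in that order. The exaggerated rise of Mcam had 2.26. Of the genes that turned direction, Pir had 1.48 and Ifit3 -2.34. Groups of 3 libraries were not tested for single outlying libraries.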

How the results depend on the processing

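No named gene changed the sign of its interaction past the threshold under any alternative. Of the values of called named genes under the alternatives, 2083 kept their call and 522 lost it, and of those not called 957 stayed so and 19 passed. The counts moved more. Without the filter on low values 750.0 genes were called, 449 higher and 301 lower, with 573 blunted and 148 exaggerated. DESeq2 on recovered reads called 2442, 1498 higher and 944 lower, with 1886 blunted and 493 exaggerated, and edgeR's quasi-likelihood test 1220.0, of which 1147 were shared with limma. Leaving out 1 library gave 342 to 1603 called genes, 207 to 922 higher and 135 to 681 lower, 256 to 1213 blunted, 73 to 340.0 exaggerated and 13 to 50 reversed, with the KO response called in 9267 to 10743 and the WT response in 10085 to 10840.0. The lowest counts for the interaction and its classes came without WT differentiated library 3, and the cause was not tested. For the KO response the lowest count came without KO stem library 2, and for the WT response without WT differentiated library 1.

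With the replicate number as a block over all libraries, 2141 genes were called, 1274 higher and 867 lower, with 1630.0 blunted, 435 exaggerated and 76 reversed. Correlations between libraries were taken on log2 values after the group mean of each gene was subtracted. The numbers were not taken to pair the samples, since on that scale same-numbered differentiated and stem libraries correlated at 0.286, 0.191 and 0.256 in KO but at 0.107, 0.055 and 0.145 in WT. Within a genotype each library correlated best with its own number, a hint from the data and not the design, and a block within genotype called 1347 genes, 997 of them shared.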

Other observations

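Gene families grouped by symbol, chosen after their values were seen, gave further descriptions. Of 91 tested Rpl and Rps genes, which encode ribosomal proteins, 43 had a higher interaction and 0 a lower one, against 5.12% higher and 3.58% lower over all genes tested. The median response was -0.61 in KO and -0.92 in WT, and 86 of the 91 interactions were above 0. These genes have many processed copies with which reads can be shared, so single members are uncertain. Of 21 Nup genes, which encode nuclear pore proteins, 10 were higher, against the same 5.12%, and 0 lower, with a median response of -0.90 in KO and -1.39 in WT.

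Of 44 Trim genes 8 had a lower and 4 a higher interaction, and of 12 Parp genes 4 were lower and 1 higher, against 3.58% lower and 5.12% higher over all genes tested. Trim30a at -1.71 and Trim30d at -1.63 had the lowest Trim values, and Parp12 at -0.70 and Parp14 at -0.67 the lowest Parp values.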
